A study of Mus musculus with 18 samples.

Results

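The genes described here encode matrix metalloproteinases and other proteins that cut, stabilize or bind the extracellular matrix. They are *Mmp14*, *Mmp12*, *Mmp13*, *Mmp19*, *Timp2*, *Adam8*, *Lox*, *Thbs1*, *Sdc4* and *Fn1*, 10 of the 31053 genes listed in the deposited table. They were selected on measured values of these libraries, but which values were used is not stated. Their changes with modified LDL are taken to have been used, and are given below as a description. The other comparisons draw on the same libraries, so the choice may bear on them too. All 10 passed the filter on low counts, which left 12290 genes, although *Fn1*, *Lox* and *Mmp13* did so at means over the 18 libraries of 3.31, 5.07 and 5.91 CPM, which are read counts scaled to a common library size.

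RNA-Seq was performed on BM-derived macrophages, which are grown from the bone marrow with macrophage growth factor for 7 days. The mice were 12 weeks old, 3 of them Slc7a7-/- and 3 Slc7a7+/+ (wild type). *Slc7a7* is a subunit of an amino acid exchanger of the plasma membrane, and in the Slc7a7-/- mice it was deleted by LysM-Cre, a recombinase expressed from the *Lyz2* locus of myeloid cells, so that these mice are called knockout below only for their myeloid cells. From each mouse 100000 cells were seeded per condition and kept for 24 h in control medium (mock treated), with 50 μg/mL of acetylated LDL (AcLDL) or with 100 μg/mL of oxidized LDL (OxLDL), which gave 6 groups of 3 libraries. Both are chemically altered lipoproteins, and scavenger receptors mediate their uptake by macrophages. Because the doses differ, the kind of LDL and its dose cannot be told apart. The cells of each mouse were used in all 3 media, so that the media share mice while the genotypes do not. In the labels, wild type libraries carry the lower library numbers and knockout libraries the higher ones. What these numbers mark is not stated, and any order that they follow cannot be told apart from genotype.

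Matrix metalloproteinases are zinc endopeptidases that are made as inactive precursors and degrade collagens, elastin and other matrix proteins. The membrane-bound form encoded by *Mmp14* cuts collagen at the cell surface and activates the precursor of another metalloproteinase in a complex with the inhibitor encoded by *Timp2*. In the arterial wall, macrophages are a known source of these proteases, and the balance between proteolysis and crosslinking of collagen is known to bear on the stability of the plaque cap.

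*Mmp14* is on the plus strand of chromosome 14, at 54431612 to 54445364 of GRCm38. It is a neighbour of the deleted gene. *Slc7a7* (54369442 to 54417780, minus strand) is 13.8 kb away, with *Mrpl52* as the 1 gene between them. *Mmp13* (chromosome 9, 7272514 to 7283331, plus strand) and *Mmp12* (chromosome 9, 7344381 to 7369499, plus strand) are 61.0 kb apart with 0 genes between them, in the cluster of metalloproteinase genes. The upstream sequences of these 3 proteases are shown because they differ in the sequence elements next to the start of transcription. They are the 250 bases before the start in RefSeq (GRCm38.p6), 5′ to 3′ on the plus strand, at chr14:54431348-54431597 for *Mmp14*, chr9:7272264-7272513 for *Mmp13* and chr9:7347124-7347373 for the second of the starts listed for *Mmp12*, which is inside the annotated span of that gene. Capitals mark matches, on either strand, to TGANTCA, the core of the AP-1 site, and to TATAAA, the TATA box.
Mmp14: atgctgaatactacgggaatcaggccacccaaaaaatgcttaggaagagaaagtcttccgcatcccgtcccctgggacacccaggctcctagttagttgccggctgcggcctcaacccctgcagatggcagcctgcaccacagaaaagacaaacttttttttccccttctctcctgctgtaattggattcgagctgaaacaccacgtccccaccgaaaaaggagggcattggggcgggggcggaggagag
Mmp13: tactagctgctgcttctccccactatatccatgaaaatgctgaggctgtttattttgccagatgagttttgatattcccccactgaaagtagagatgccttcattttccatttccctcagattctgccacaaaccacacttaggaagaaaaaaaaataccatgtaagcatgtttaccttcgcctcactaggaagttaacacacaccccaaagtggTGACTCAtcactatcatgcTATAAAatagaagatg
Mmp12: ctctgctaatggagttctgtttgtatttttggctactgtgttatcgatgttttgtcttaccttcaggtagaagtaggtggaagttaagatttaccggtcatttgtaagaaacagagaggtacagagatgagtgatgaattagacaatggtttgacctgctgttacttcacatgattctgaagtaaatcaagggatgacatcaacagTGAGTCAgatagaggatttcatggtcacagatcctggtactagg
Of 32851 upstream windows of this length in the RefSeq table, 6.75% hold a match to TGANTCA and 12.4% a match to TATAAA. Counted from the start of transcription to the first base of the match, *Mmp13* had TGANTCA at position -35 and TATAAA at -16, and *Mmp12* had TGANTCA at -44 of this start. Neither was found in the window of *Mmp14*, nor in those of *Timp2*, *Adam8* and *Sdc4* or before the first start of *Mmp12*. No window was matched for *Mmp19*, *Lox*, *Thbs1* and *Fn1*. A match is a string of letters and was not tested as a binding site. No relation of these matches to the response to LDL was tested.

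The total count per library was between 1043492 and 1768816 (median 1466145), and the floor of 3 counts that a value of 0 leaves possible equalled 1.67 to 2.85 CPM. Reads and not molecules were counted, so this limit covers counting error only. *Slc7a7* was lower in every knockout library than in every wild type library of the same medium, with means of 6.58 ± 3.20 against 14.9 ± 5.41 CPM in control, 3.27 ± 1.69 against 25.3 ± 2.74 CPM with AcLDL and 9.91 ± 1.15 against 28.0 ± 1.81 CPM with OxLDL (SD, n = 3 each). The difference passed the threshold with AcLDL (log2 fold change -2.89 ± 0.36 SE, adjusted p = 0.000472, edgeR) but not in control (adjusted p = 1) or with OxLDL (adjusted p = 0.276). All 9 macrophage markers examined had counts, with summed levels of 21370 to 35986 CPM in wild type and 12760 to 21368 CPM in knockout libraries, most of it *Lyz2*, which is the locus that carries Cre. In knockout cells the sum was 18057 to 21368 CPM in control, 15293 to 17788 CPM with AcLDL and 12760 to 14686 CPM with OxLDL, with no overlap between media, whereas in wild type cells (24863 to 35538, 26067 to 35986 and 21370 to 30341 CPM) the media overlapped. The part of these levels in the differences with LDL was not tested. Of other cell types, the lymphoid, erythroid and dendritic marker lists summed to at most 4.62 CPM in any library and the endothelial list to between 7.22 and 18.1 CPM.

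Per length of exon, the genes differed in level (the plot of levels per length in control medium). In wild type control cells, *Adam8* was at 155 ± 41.3 CPM per kilobase, *Sdc4* at 63.5 ± 13.2, *Timp2* at 35.4 ± 7.39 and *Mmp12* at 14.5 ± 4.01 (SD, n = 3). Between neighbours in this order the 3 libraries of the genes did not overlap. *Mmp14* followed at 5.04 ± 2.40 and *Mmp19* at 4.64 ± 0.57 CPM per kilobase, which overlapped each other. *Mmp13* (1.89 ± 0.74), *Lox* (1.88 ± 1.15) and *Thbs1* (1.77 ± 0.63) also overlapped, and *Fn1* was lowest at 0.30 ± 0.34 CPM per kilobase. *Fn1*, the gene of fibronectin, had between 0 and 15 counts in a library, and no difference in it was detected at this depth.

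**Figure D1:**
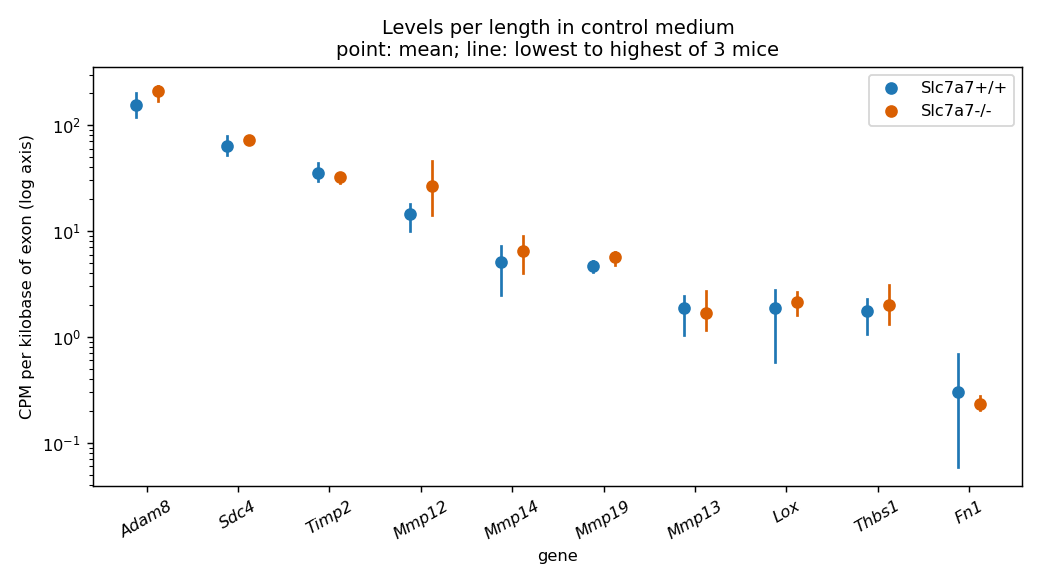
Level of each gene in control medium as CPM per kilobase of annotated exon, on a log axis, for Slc7a7+/+ and Slc7a7-/- macrophages; points are means and lines run from the lowest to the highest of 3 mice. *Adam8* lies highest, at 155 CPM per kilobase in wild type cells, and *Fn1* lowest, at 0.30.

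The question whether LDL loading altered these genes was addressed within each genotype. With AcLDL, 1 of the 10 genes passed the threshold of 0.05 for the adjusted p in wild type cells, *Mmp14*, which was lower. Of all genes tested, 0.407% passed as lower and 0.0651% as higher in that comparison. In knockout cells *Mmp14* was again the 1 gene that passed, as lower, beside 0.448% lower and 0.0732% higher of all genes. With OxLDL, *Mmp14* and *Sdc4* were lower and *Thbs1* was higher in wild type cells, where 1.07% of all genes were lower and 0.277% higher. In knockout cells *Mmp14*, *Sdc4* and *Lox* were lower with OxLDL and 0 were higher, beside 1.66% and 0.659% of all genes. In knockout cells these shares were 9 genes higher and 55 lower with AcLDL and 81 higher and 204 lower with OxLDL, which scaling by library size alone moved to 15 and 46 and to 108 and 166. Since the choice of the genes is taken to rest on these same differences, nothing is read from their share. The median log2 fold change of the 10 genes was -0.05 and 0.13 with AcLDL and OxLDL in wild type and -0.36 and -0.09 in knockout cells, where that of all genes was between -0.0046 and 0.0079. The comparisons of AcLDL and OxLDL with control share the control libraries. In bulk RNA, fewer cells of a type and less RNA per cell cannot be told apart.

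**Figure D2:**
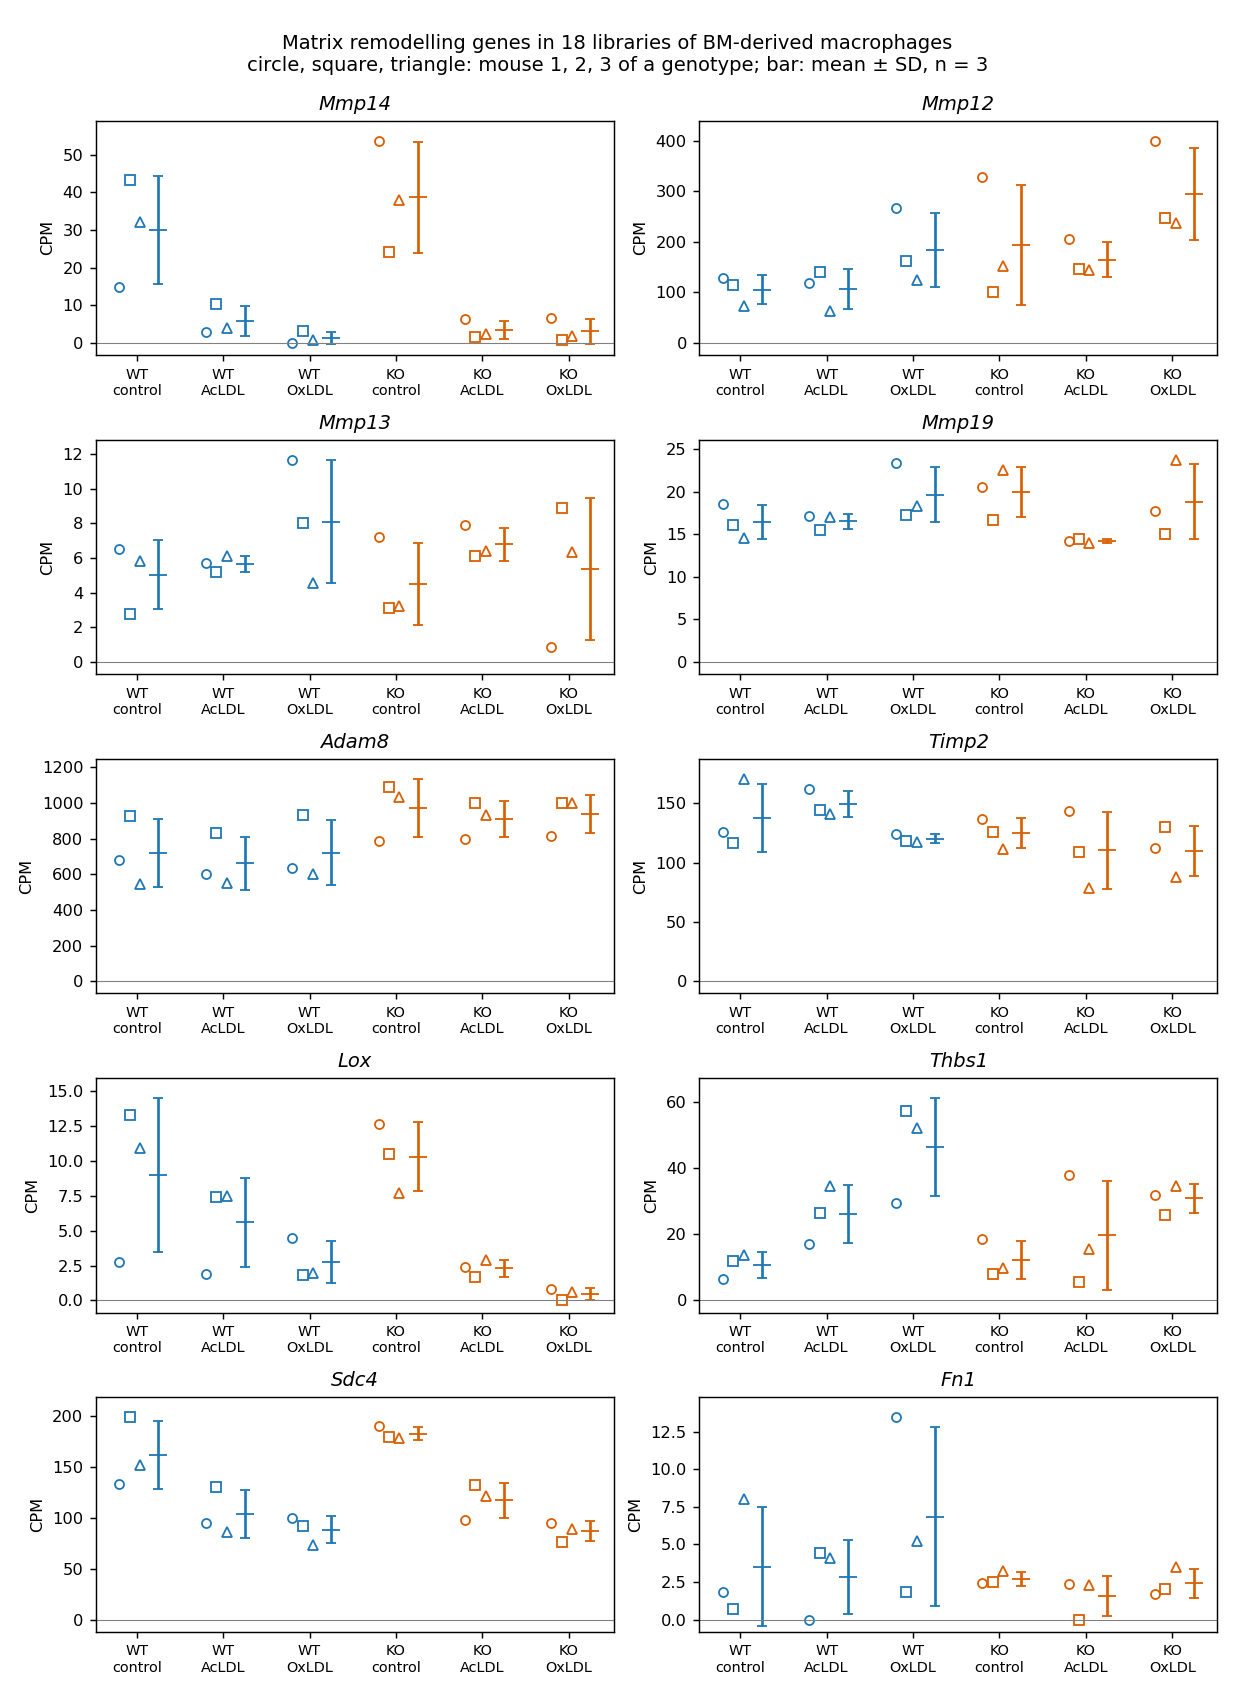
CPM of the 10 genes in each of the 18 libraries by genotype (WT, Slc7a7+/+; KO, Slc7a7-/-) and medium; symbols mark the mouse and bars the mean ± SD of 3 mice. *Mmp14* falls from between 14.9 and 53.7 CPM in control medium to at most 10.3 CPM with LDL, whereas for *Adam8* the 3 media overlap within each genotype.

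*Mmp14*, the membrane-bound collagenase, fell with both lipoproteins in both genotypes. Wild type control libraries held 14.9, 43.3 and 32.1 CPM in mice 1, 2 and 3, against 2.85, 10.3 and 4.08 CPM with AcLDL and 0, 3.09 and 0.65 CPM with OxLDL. In knockout cells, control libraries held 53.7, 24.1 and 38.0 CPM, against 6.30, 1.67 and 2.32 CPM with AcLDL and 6.74, 0.68 and 1.73 CPM with OxLDL. Every LDL-treated library lay below every control library of its genotype, and the libraries with AcLDL and OxLDL overlapped. Log2 fold changes were -2.36 ± 0.52 with AcLDL and -4.38 ± 0.67 with OxLDL in wild type cells, and -3.57 ± 0.54 and -3.76 ± 0.56 in knockout cells (SE, edgeR). With OxLDL the counts were between 0 and 8 per library, at or near the limit of detection, so that the size of the fall is imprecise there. Without OxLDL mouse 2 it was -6.06 in wild type cells, and without OxLDL mouse 1 it was -4.84 in knockout cells. For AcLDL the value was -3.08 without wild type AcLDL mouse 2 and -4.22 without knockout AcLDL mouse 1. Over all alternative fits it lay between -6.06 and -3.95 with OxLDL in wild type and between -4.84 and -3.30 in knockout cells. With AcLDL in knockout cells it lay between -4.22 and -3.20. In wild type cells with AcLDL, the call was lost without control mouse 2 (log2 fold change -2.01) or 3 (-2.32) and without AcLDL mouse 1 (-2.09) or 3 (-2.12), and also when only the 6 libraries of the comparison were fitted (-2.35). In the other 3 comparisons no library that was left out ended it.

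Among the other genes tested with a mean of at least 5 CPM, those whose log2 CPM followed *Mmp14* most closely over the 18 libraries were *Ralgds* (Pearson r = 0.957), *Clec4e* (0.955), *Mcl1* (0.935), *Fam20c* (0.935) and *Mvp* (0.926), out of 9822 genes compared. These correlations describe libraries that share mice and the same 3 media. Of the 10 genes themselves, *Sdc4* (r = 0.86) and *Lox* (0.76) varied most closely with *Mmp14*, and the remaining ones had r between -0.49 and 0.28.

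*Sdc4* encodes syndecan-4, a cell surface heparan sulfate proteoglycan that binds fibronectin and growth factors together with integrins. In wild type mice 1, 2 and 3 it was at 134, 199 and 152 CPM in control, 94.9, 131 and 86.4 CPM with AcLDL and 100.3, 92.0 and 73.7 CPM with OxLDL. In knockout mice it was at 191, 180.1 and 179 CPM in control, 97.7, 132 and 122 CPM with AcLDL and 95.1, 75.9 and 89.6 CPM with OxLDL. Each of the 12 LDL-treated libraries lay below every control library of its genotype. The log2 fold change was -0.88 ± 0.17 in wild type and -1.08 ± 0.17 in knockout cells with OxLDL, where it passed the threshold. With AcLDL it was -0.64 ± 0.17 and -0.64 ± 0.16 and did not pass, but it did pass in both genotypes with the mouse as a block (-0.64 and -0.63), and in wild type cells without control mouse 1 (-0.74) or AcLDL mouse 2 (-0.85). The call with OxLDL in wild type cells was lost without control mouse 2 (-0.70) or OxLDL mouse 3 (-0.77), and when only the 6 libraries of the comparison were fitted (-0.88).

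*Thbs1*, the gene of thrombospondin-1, a secreted matricellular glycoprotein that binds cell surface receptors and matrix proteins, rose with OxLDL in wild type cells. Wild type libraries of mice 1, 2 and 3 held 6.50, 11.9 and 13.8 CPM in control, 17.1, 26.6 and 34.7 CPM with AcLDL and 29.6, 57.4 and 52.2 CPM with OxLDL, so that neither LDL group overlapped with control. Knockout libraries held 18.7, 8.05 and 9.67 CPM in control, 37.8, 5.55 and 15.7 CPM with AcLDL and 32.0, 26.0 and 34.7 CPM with OxLDL. There the AcLDL libraries overlapped with control, whereas those with OxLDL did not. The log2 fold change with OxLDL was 2.09 ± 0.44 in wild type cells, which passed, and 1.34 ± 0.44 in knockout cells, which did not. With AcLDL it was 1.27 ± 0.48 and 0.60 ± 0.46. With the mouse as a block, the rises with AcLDL (1.28) and OxLDL (2.10) in wild type cells and with OxLDL in knockout cells (1.43) passed. Without wild type control mouse 2 (2.16) or OxLDL mouse 3 (2.0) the call in wild type cells was lost. *Thbs1* is also abundant in platelets. The 6 platelet and megakaryocyte markers summed to 12.6 to 22.3 CPM in wild type control and 26.9 to 30.2 CPM with OxLDL, and to 12.7 to 21.0 and 20.5 to 29.5 CPM in knockout cells. Of these *Pf4* was detected in every library, *Gp9* was at 0 in all 18 and *Ppbp* in 17 of 18. Their part in the difference was not tested.

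*Lox* encodes lysyl oxidase, the copper enzyme that crosslinks collagen and elastin, and was measured at few counts. In knockout mice 1, 2 and 3 it had 21, 17 and 12 counts in control, 3, 3 and 5 with AcLDL and 1, 0 and 1 with OxLDL, equal to 12.7, 10.5 and 7.74 CPM, 2.36, 1.67 and 2.90 CPM, and 0.84, 0 and 0.58 CPM. In wild type mice the levels were 2.79, 13.3 and 10.9 CPM in control, 1.90, 7.39 and 7.48 CPM with AcLDL and 4.48, 1.85 and 1.96 CPM with OxLDL. Knockout libraries with either LDL lay below all knockout control libraries, while in wild type cells the groups overlapped and the control library of mouse 1 was low. The fall with OxLDL in knockout cells passed the threshold and was 4.90-fold from the control mean when the OxLDL libraries are set to 3 counts each. DESeq2 gave no adjusted p for it. With AcLDL in knockout cells the log2 fold change was -2.13 ± 0.55, which did not pass, but did with the mouse as a block (-2.10), without a filter on low counts (-2.13) and when only the 6 libraries of the comparison were fitted (-2.13). In wild type cells it was -0.67 ± 0.50 with AcLDL and -1.80 ± 0.57 with OxLDL, and the latter passed without control mouse 1 (-2.17).

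**Figure D3:**
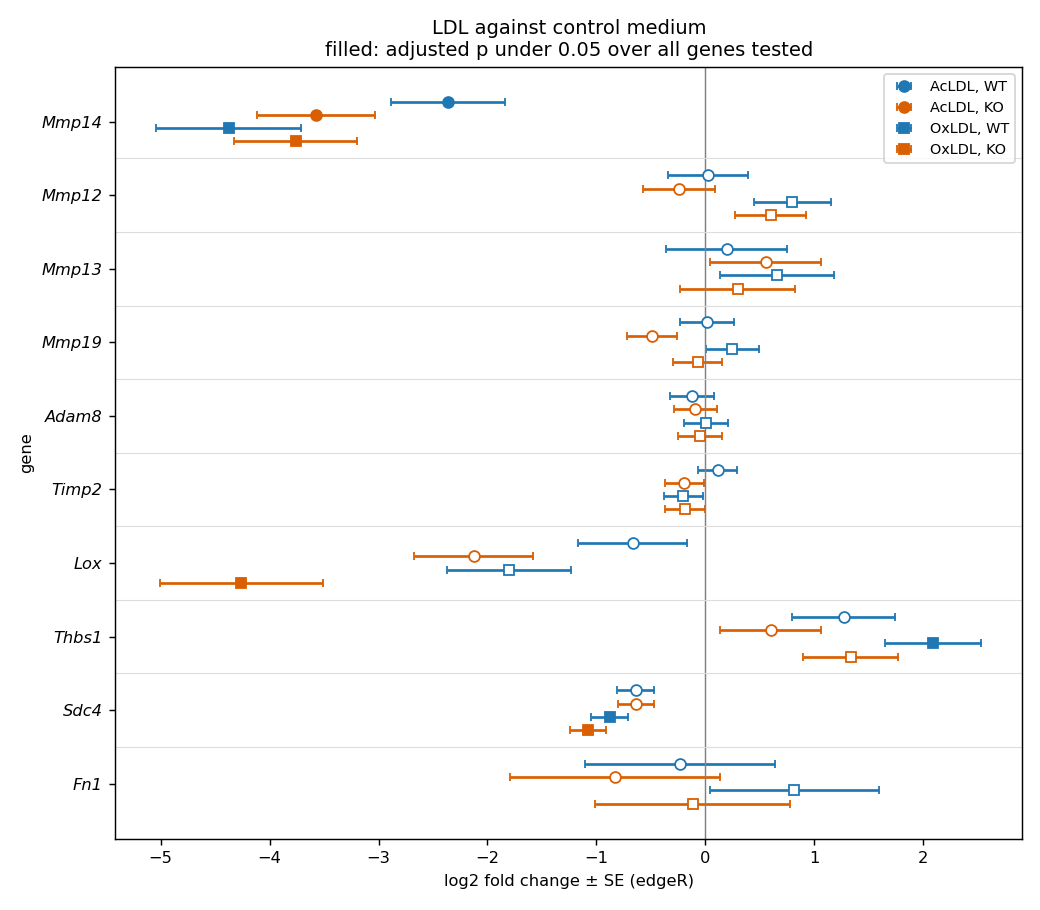
Log2 fold change (± SE, edgeR) of each gene with AcLDL (circles) or OxLDL (squares) against control medium in Slc7a7+/+ (WT) and Slc7a7-/- (KO) macrophages, 3 mice each; filled symbols passed an adjusted p of 0.05 over all 12290 genes. All 4 changes of *Mmp14* are filled and lie between -4.38 and -2.36, and the fitted value of *Lox* with OxLDL in KO cells rests on 0 to 1 counts and depends on the prior count of the fit.

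No other metalloproteinase among the 10 genes passed the threshold with LDL. *Mmp12*, the macrophage elastase, was at 129, 114 and 72.9 CPM in wild type control libraries of mice 1, 2 and 3, 119, 139.6 and 62.6 CPM with AcLDL and 266, 162 and 124 CPM with OxLDL. In knockout libraries it was at 328, 102 and 151 CPM in control, 205, 145 and 144 CPM with AcLDL and 399.9, 248 and 238 CPM with OxLDL. OxLDL libraries were higher than control in 3 of 3 mice of each genotype, but the groups overlapped. The log2 fold change with OxLDL was 0.80 ± 0.35 in wild type and 0.60 ± 0.33 in knockout cells and did not pass. With the mouse as a block it passed in both (0.78 and 0.68). With AcLDL it was 0.02 ± 0.37 and -0.24 ± 0.33. The 10 neutrophil markers, which include a neutrophil metalloproteinase, summed to 99.9 to 149 CPM in wild type control and 183 to 329 CPM with OxLDL. In knockout cells they summed to 58.2 to 149 and 92.4 to 148 CPM. *Ly6g* and *Retnlg* were at 0 in all 18 libraries. In contrast, *Ngp*, *Ltf*, *S100a8* and *S100a9* had counts in every library and reached 61.7, 39.4, 37.0 and 111 CPM. The metalloproteinase also had counts in every library (up to 77.1 CPM). The part of these markers in the levels of *Mmp12* was not tested. Of the transcript sequence of *Mmp12*, 4.24% of 31-base words also occur in other genes, and it overlaps *Mmp1b* on the opposite strand over 157 exon bases.

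*Mmp13*, a collagenase, stayed at low counts. It had between 1 and 13 counts in each library, with group means between 4.52 CPM (knockout control) and 8.08 CPM (wild type with OxLDL), and its log2 fold changes with LDL were between 0.20 and 0.66 with SE of 0.51 to 0.56. *Mmp19*, a metalloproteinase with basement membrane substrates, had group means between 14.2 and 19.9 CPM. In knockout cells it was at 20.5, 16.7 and 22.6 CPM in control and at 14.2, 14.4 and 13.9 CPM with AcLDL, which did not overlap, but the difference of -0.49 ± 0.23 on the log2 scale did not pass. *Mmp19* overlaps *Tmem198b* on the opposite strand over 789 exon bases.

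*Adam8*, the gene of a membrane-bound disintegrin and metalloproteinase of leukocytes, had the highest level of the 10 genes and showed 0 calls with LDL. In wild type mice 1, 2 and 3 it was at 681, 926 and 548 CPM in control, 602, 832 and 549 CPM with AcLDL and 633, 931 and 601 CPM with OxLDL, so that mouse 2 was highest in each medium. In knockout mice it was at 785, 1092 and 1035 CPM in control, 798, 999.6 and 934 CPM with AcLDL and 816, 999 and 1001 CPM with OxLDL, and mouse 1 was lowest in each medium. All 4 log2 fold changes with LDL lay between -0.12 and 0.01, with SE of 0.20. *Timp2*, the metalloproteinase inhibitor that also takes part in activation by *Mmp14*, was between 78.3 and 171 CPM in the 18 libraries, with log2 fold changes between -0.20 and 0.11 and SE of 0.18. *Fn1* had log2 fold changes between -0.83 and 0.82 with SE of 0.77 to 0.96. The 10 fibroblast and stromal markers, cells known to express *Fn1* and *Lox*, summed to at most 36.7 CPM in any library, with the highest library in the wild type OxLDL group. *Lum* was at 0 in all 18 libraries. *Col1a2*, *Col1a1* and *Acta2* reached 16.1, 9.86 and 9.52 CPM and were at 0 in 7, 12 and 4 libraries. The part of these markers in the levels of *Fn1* and *Lox* was not tested.

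The difference between OxLDL and AcLDL was tested directly, and 0 of the 10 genes passed in either genotype in the fit reported (edgeR) or by DESeq2. This comparison uses the LDL libraries on which the choice of the genes is taken to rest, so it is not independent of that choice. In this comparison 0.00814% of all genes were lower and 0% higher in wild type cells, and 0.057% lower and 0.00814% higher in knockout cells. At an unadjusted p under 0.05 there were 3 of the 10 genes in each genotype, against 632 of all 12290 genes in wild type and 682 in knockout cells. In wild type cells these were *Mmp14* (log2 fold change -2.01 ± 0.88, OxLDL over AcLDL, adjusted p = 0.944), *Mmp12* (0.78 ± 0.35, adjusted p = 0.954) and *Thbs1* (0.82 ± 0.39, adjusted p = 0.965). In knockout cells these were *Mmp12* (0.84 ± 0.33, adjusted p = 0.827), *Sdc4* (-0.44 ± 0.17, adjusted p = 0.823) and *Lox*, which was lower (adjusted p = 0.880, edgeR). In knockout libraries *Lox* had 0 to 1 counts with OxLDL and 3 to 5 with AcLDL, so that no size is given. *Mmp12* was higher with OxLDL than with AcLDL in 3 of 3 mice of each genotype, and it passed with the mouse as a block, in wild type (0.76, adjusted p = 0.0114) and in knockout cells (0.81, adjusted p = 0.000766; edgeR). The other genes had log2 differences between -1.13 and 1.05 in wild type and between -0.26 and 0.74 in knockout cells. The dose of OxLDL was the higher one throughout.

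The question whether loss of *Slc7a7* altered these genes was addressed within each medium. In any of the 3 media, 0 of the 10 genes passed in the fit reported (edgeR) or by DESeq2. The share of all genes that passed, in either direction, was 0.00814% in control, 0.0163% with AcLDL and 0.00814% with OxLDL. At an unadjusted p under 0.05 there were 2, 3 and 2 of the 10 genes, against 491, 601 and 587 of all 12290 genes. *Mmp12* was higher in knockout than in wild type cells by 0.89 ± 0.35 on the log2 scale in control (adjusted p = 1, edgeR) and by 0.69 ± 0.33 with OxLDL (adjusted p = 0.933, edgeR). The libraries overlapped in control and with OxLDL, and knockout mouse 1 was the highest of the 6 mice in each medium. With AcLDL the knockout libraries (144 to 205 CPM) lay above the wild type ones (62.6 to 139.6 CPM), but the difference did not pass. Without a filter on low counts, *Mmp12* passed in all 3 media. *Adam8* was higher by 0.43 ± 0.20 in control (adjusted p = 1, edgeR) and by 0.46 ± 0.20 with AcLDL (adjusted p = 0.990, edgeR), with overlapping libraries, since wild type mouse 2 reached the knockout range. *Timp2* was lower with AcLDL (log2 fold change -0.45 ± 0.18, adjusted p = 0.990, edgeR). *Lox* was lower with AcLDL (-1.31 ± 0.61, adjusted p = 0.990, edgeR) and with OxLDL (adjusted p = 0.933, edgeR). With OxLDL it had 0 to 1 counts in knockout and 3 to 5 in wild type libraries, so that no size is given. The other genes lay between -0.40 and 0.33 in control, between -1.0 and 0.63 with AcLDL and between -1.33 and 0.95 with OxLDL. *Mmp14*, the neighbour of the deleted gene, differed by 0.33 ± 0.39 in control, -0.88 ± 0.73 with AcLDL and 0.95 ± 1.0 with OxLDL.

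**Figure D4:**
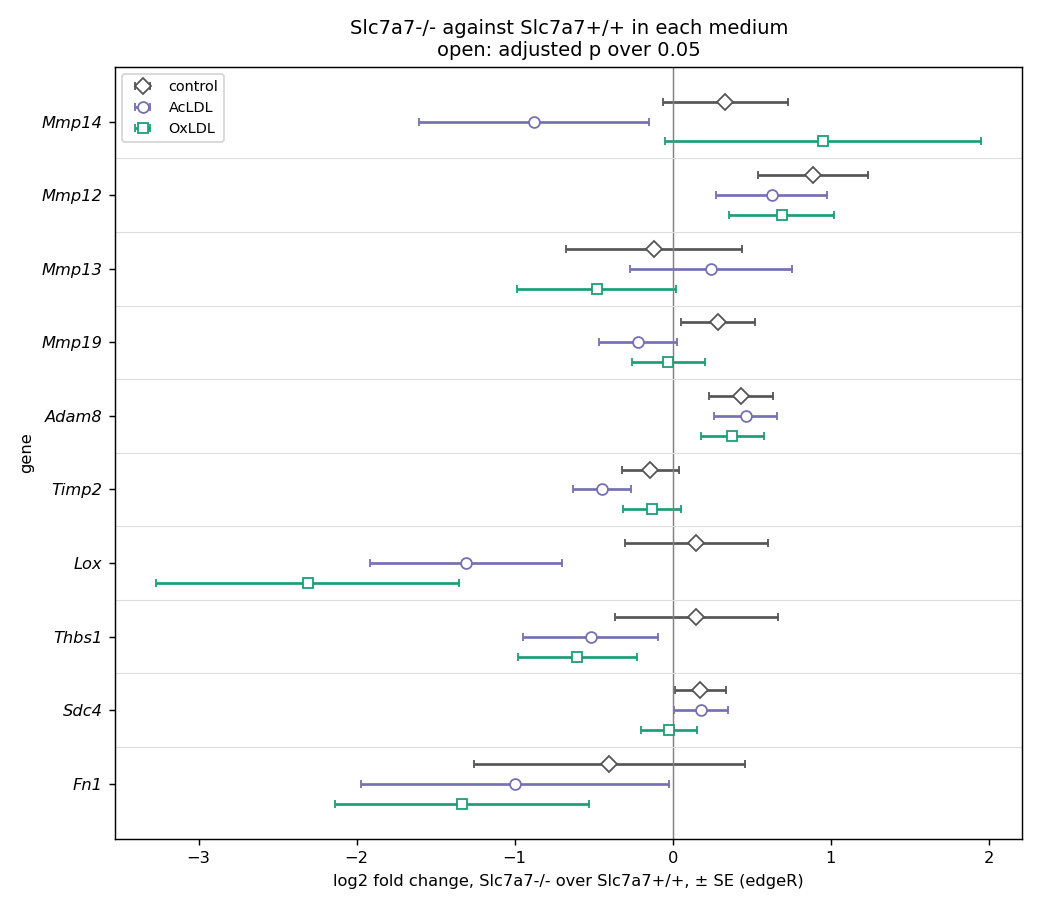
Log2 fold change (± SE, edgeR) of each gene in Slc7a7-/- over Slc7a7+/+ macrophages in control medium (diamonds), with AcLDL (circles) and with OxLDL (squares), 3 mice per genotype. All symbols are open, since 0 of the 10 genes passed an adjusted p of 0.05; *Mmp12* and *Adam8* lie above 0 in all 3 media.

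Whether the response to LDL differed between genotypes was tested as an interaction. For AcLDL and OxLDL, 0 of the 10 genes and 0% of all genes passed by edgeR, and 0 of the 10 passed by DESeq2. At an unadjusted p under 0.05 there were 0 of the 10 genes for AcLDL, against 327 of all genes, and 1 for OxLDL, against 338 of all genes. That gene was *Lox*, whose fitted fall with OxLDL was larger in knockout cells (difference of log2 fold changes -2.46 ± 1.06, adjusted p = 1, edgeR), a value that rests on 0 to 1 counts in the knockout OxLDL libraries. All 10 genes differed by between -1.46 and 0.36 in their response to AcLDL and the others by between -0.93 and 0.62 in their response to OxLDL. The larger response of *Thbs1* to OxLDL in wild type than in knockout cells did not pass this test (difference -0.75 ± 0.64).

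The other genes of these pathways were examined as lists. Of 18 other matrix metalloproteinases listed, 4 passed the filter on low counts, and of 6 other inhibitors of metalloproteinases 2 did. None of either list passed in the 4 comparisons of LDL with control by edgeR or DESeq2, with 1, 1, 0 and 1 metalloproteinases and 0 inhibitors at an unadjusted p under 0.05 (wild type AcLDL and OxLDL, knockout AcLDL and OxLDL in turn). Of all 12290 genes, 901, 1233, 926 and 1510 were under this p in the same comparisons. With the mouse as a block, 1 metalloproteinase was higher with OxLDL in each genotype. The median log2 fold change of the metalloproteinases was between -0.24 and 0.45 and that of the inhibitors between -0.31 and 0.76. Of the plasminogen activation system, which generates plasmin, 6 of 11 genes were tested, of the enzymes that hydroxylate and crosslink collagen 8 of 12, and of the other matricellular proteins 5 of 13. None of these passed by edgeR, and DESeq2 called 1 plasminogen activation gene lower in knockout cells with OxLDL. At an unadjusted p under 0.05 there were 2, 1, 0 and 3 genes of plasminogen activation, 1, 1, 0 and 2 of crosslinking and 0 of the matricellular list, beside the numbers for all genes given above. Their medians were between -0.09 and 0.26, between -0.07 and 0.26, and between -0.25 and 0.02. With the mouse as a block, 1 plasminogen activation gene was higher in wild type cells with either LDL, 1 was higher and 1 lower in knockout cells with OxLDL, and 1 crosslinking gene was higher with OxLDL in each genotype. Of all 12290 genes, the block called 265, 539, 307 and 882 in the 4 comparisons.

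In the remaining lists 6 genes outside the 10 passed with LDL, and all of these calls were lower. *Sdc1*, which encodes syndecan-1, was 1 of 7 tested syndecans and other cell surface proteoglycans (13 listed, medians between -0.33 and -0.07) and fell in all 4 comparisons. In wild type cells it went from 135 ± 28.1 CPM in control to 54.3 ± 15.1 CPM with AcLDL and 32.4 ± 6.20 CPM with OxLDL (SD, n = 3), log2 fold changes of -1.34 ± 0.20 (adjusted p = 0.000588, edgeR) and -2.08 ± 0.22 (adjusted p = 1.06e-06, edgeR). In knockout cells it went from 169 ± 32.7 to 63.8 ± 10.1 and 41.7 ± 5.14 CPM (SD, n = 3), log2 fold changes of -1.41 ± 0.19 (adjusted p = 0.000151, edgeR) and -2.03 ± 0.20 (adjusted p = 5.66e-07, edgeR). No left-out library and no other setting ended these calls of *Sdc1*.

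*Itga5*, the alpha subunit of the fibronectin receptor, was 1 of 15 tested integrin genes (25 listed, medians between -0.21 and -0.03). It fell with OxLDL from 253 ± 43.2 to 130.5 ± 21.7 CPM in wild type and from 329.6 ± 33.8 to 159 ± 7.23 CPM in knockout cells (SD, n = 3; adjusted p = 0.000193 and 2.97e-05, edgeR). With AcLDL it was at 174 ± 4.31 CPM in wild type cells, which did not pass (adjusted p = 0.0922; with the mouse as a block, adjusted p = 0.00161, and by DESeq2, adjusted p = 0.0448), and at 217 ± 17.6 CPM in knockout cells, which did (adjusted p = 0.0330, edgeR). The latter call was lost without any 1 of 5 libraries, the exception being knockout control mouse 1 (adjusted p between 0.104 and 0.329, edgeR), and with scaling by library size alone. *Col18a1*, a basement membrane collagen, was 1 of 13 tested structural matrix genes (33 listed, medians between -0.15 and 0.04) and fell in all 4 comparisons, by log2 fold changes between -0.68 and -0.54. Its mean was 263 ± 10.5 CPM in wild type and 314 ± 16.7 CPM in knockout control cells, and between 164 and 217 CPM in the groups with LDL. With OxLDL the call held without each of the libraries, but in wild type cells it was lost when only the 6 libraries of the comparison were fitted (adjusted p = 0.132, edgeR). With AcLDL it was lost in wild type cells without control or AcLDL mouse 2 or 3 (adjusted p between 0.117 and 0.176) and in knockout cells without any 1 of the 6 libraries (adjusted p between 0.0517 and 0.320, edgeR). The calls with AcLDL were also lost with scaling by library size alone (adjusted p = 0.0602 in wild type and 0.106 in knockout cells, edgeR), and that in wild type cells when only its 6 libraries were fitted (adjusted p = 0.232).

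*Adam17*, the sheddase that releases tumour necrosis factor from the membrane, was 1 of 10 tested genes of the ADAM and ADAMTS families beside *Adam8* (30 listed, medians between -0.07 and 0.24). It fell with OxLDL from 439 ± 107 to 239 ± 52.6 CPM in wild type (adjusted p = 0.00735) and from 521 ± 28.5 to 256 ± 8.61 CPM in knockout cells (SD, n = 3; adjusted p = 0.00100, edgeR). With AcLDL it was at 294 ± 60.6 and 349 ± 31.2 CPM, which did not pass (adjusted p = 0.220 and 0.206), but did with the mouse as a block (adjusted p = 7.93e-05 and 2.99e-05, edgeR). Without wild type control mouse 2 the call with OxLDL in wild type cells was lost (adjusted p = 0.0906, edgeR), as it was when only the 6 libraries of the comparison were fitted (adjusted p = 0.164). Among 15 tested cathepsins and their inhibitors (18 listed, medians between -0.19 and -0.07), *Cst3*, which encodes the inhibitor cystatin C, and *Ctsc*, which encodes cathepsin C, were lower in knockout cells with OxLDL, at 537 ± 27.9 against 737 ± 40.5 CPM and 140.5 ± 20.5 against 212 ± 12.1 CPM (SD, n = 3; adjusted p = 0.0420 and 0.0488, edgeR). Each of these calls was lost when any 1 of the 6 libraries was left out (adjusted p between 0.0899 and 0.203 for *Cst3* and between 0.0817 and 0.292 for *Ctsc*, edgeR) and with scaling by library size alone. That of *Cst3* was also lost without a filter (adjusted p = 0.122) and that of *Ctsc* with RLE size factors (adjusted p = 0.0528, edgeR). With the mouse as a block, integrins had 2, 3, 2 and 5 calls in the 4 comparisons (in the order above), structural genes 2, 2, 1 and 3, cathepsins and their inhibitors 1, 2, 1 and 3, and proteoglycans 2, 1, 1 and 2. Of these calls, 1 integrin was higher, in knockout cells with AcLDL, and the others were lower. Of all 12290 genes, the block called 265, 539, 307 and 882 in the same comparisons. At an unadjusted p under 0.05 in the fit reported there were 2, 5, 3 and 6 integrins and 3, 5, 2 and 2 structural genes. For cathepsins and their inhibitors there were 1, 4, 2 and 3, for proteoglycans 2, 1, 1 and 1, and for ADAM and ADAMTS genes 1, 2, 1 and 3. Over all genes these numbers were 901, 1233, 926 and 1510.

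**Figure D5:**
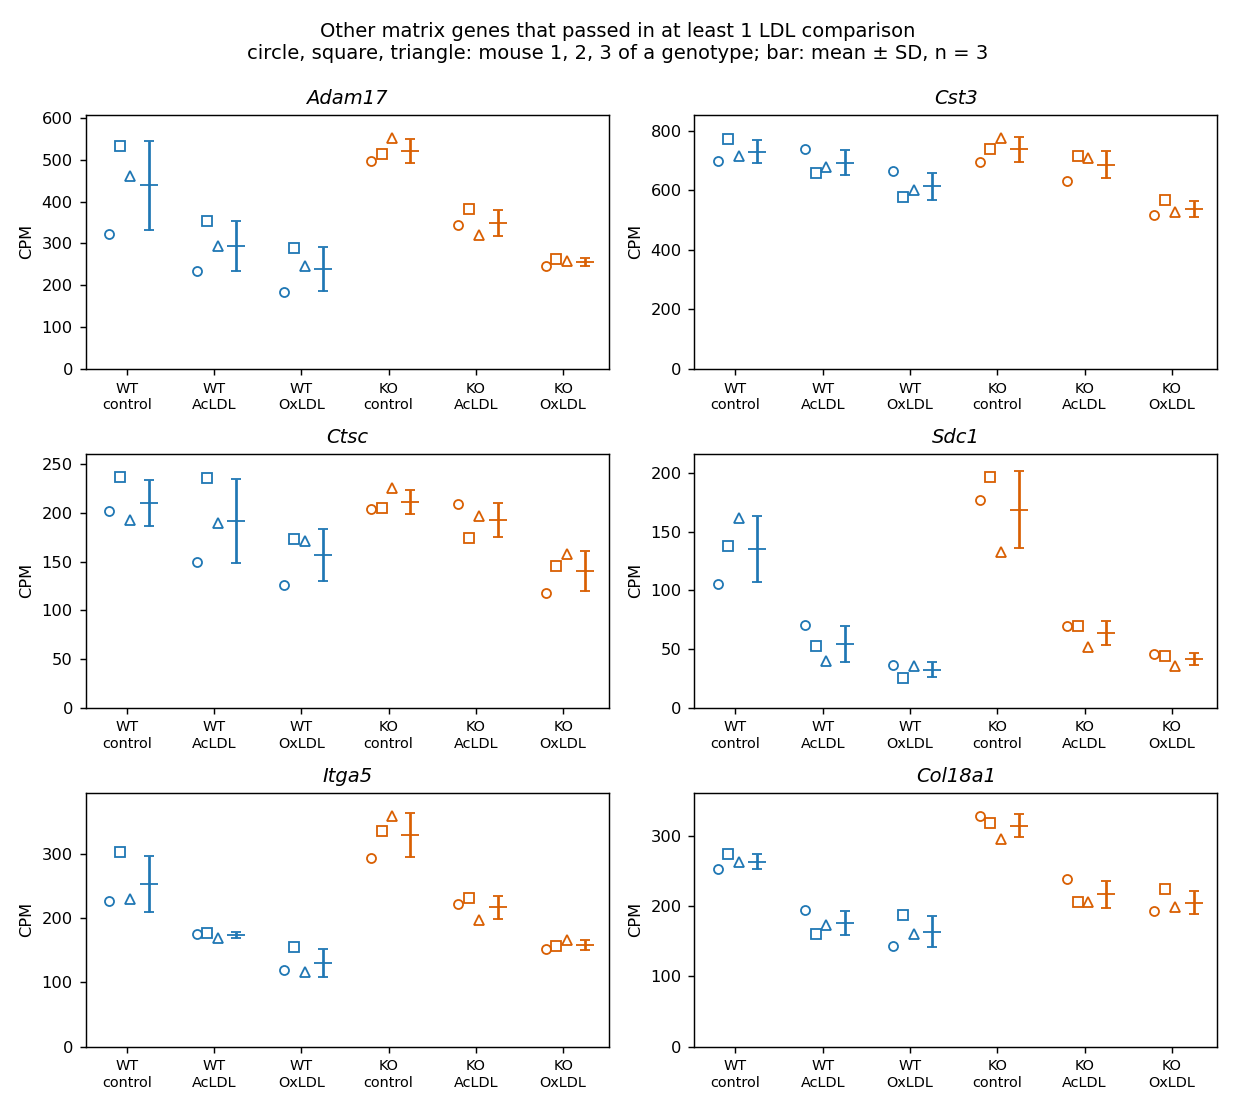
CPM of the 6 genes of the other lists that passed in at least 1 comparison of LDL with control, in each of the 18 libraries by genotype (WT, Slc7a7+/+; KO, Slc7a7-/-) and medium; symbols mark the mouse and bars the mean ± SD of 3 mice. *Sdc1* falls from 135 and 169 CPM in control medium to 32.4 and 41.7 CPM with OxLDL, and *Col18a1* and *Itga5* lie lower with either LDL in both genotypes.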

How the data were processed

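RNA-Seq of 18 libraries of BM-derived macrophages was analysed, in 6 groups of 3 that were taken from the sample labels. Doses and times are from the study's methods. Trim Galore, STAR (mm10) and Salmon were run by the authors through nf-core with genes of Ensembl release 93, and the versions and strand setting are not given in the sources used here. The library kit is stranded, but since the counting is not stated to use strand, reads of overlapping genes on opposite strands may have been shared. The values deposited by the authors are estimated counts per gene, not normalized, with 0 columns of other samples. They were rounded to whole numbers.

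Genes were filtered with filterByExpr (minimum count 2, minimum total count 10, after the study's filter of 10 and 2 counts), and all 6 groups were fitted with edgeR 4.0.16 in R 4.3.3 by the quasi-likelihood test with TMM scaling, 12 residual degrees of freedom and no covariate. P-values were adjusted by Benjamini-Hochberg over the 12290 genes tested, with a threshold of 0.05. Log2 CPM have a prior count of 2, whereas the fitted log2 fold changes have the default prior count of edgeR. SE is the log2 fold change over the square root of F. Alternatives were DESeq2 1.42.0, 2 other scalings, 2 other filters, a fit without the libraries of other groups, a replicate block and each library left out. The procedure was tested on simulated counts. No pair of replicates agreed within counting error (chi-square divided by its degrees of freedom was 2.03 to 12.7).

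The same number within a genotype marks the same mouse in the labels. Deviations of such libraries from their group means had correlations between 0.0551 and 0.293 (median 0.158), over 0.1 in 14 of 18 pairs. Across genotypes the number marks different mice. In the fit reported, p-values measure the spread between the libraries of a group, pooled over the groups. The 18 libraries were treated as independent although they come from 6 mice, so that the pairing of media within a mouse was left out. The fit with the mouse as a block includes it.

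The 10 genes, the 10 other gene lists and the 8 lists of cell type markers were chosen with earlier results of these data known. All 10 genes are named. In the comparisons of genotypes and LDL responses, a gene has its own value where its unadjusted p was under 0.05, and the others are given as a range. Of each other list, genes that passed in at least 1 comparison of LDL with control are named, at most 4 a list. Coordinates, exon lengths and overlaps are from GENCODE vM21 (GRCm38), upstream sequences from RefSeq. Figures were drawn with matplotlib 3.10.9.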

Additional observations from a re-analysis of the deposited data

How the results depend on the processing

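The direction of each called change among the 10 genes was kept in every alternative. With the mouse as a replicate block, the number of the 10 genes called went from 1 to 3 with AcLDL in wild type and in knockout cells, from 3 to 4 with OxLDL in wild type and from 3 to 5 in knockout cells, and from 0 to 1 for OxLDL against AcLDL in each genotype (*Mmp12*, log2 difference 0.76 and 0.81). It changed no call between genotypes or in the interactions, where across genotypes the number is not a pairing. Without a filter on low counts, the same numbers were 3, 3, 4, 5, 1 and 1, and between genotypes 1 gene, *Mmp12*, passed in control (log2 fold change 0.90), with AcLDL and with OxLDL (0.69). Fitting just the libraries of each comparison gave 0 with AcLDL and 2 with OxLDL in wild type cells (*Sdc4* lost), 3 with AcLDL and 4 with OxLDL in knockout cells (*Thbs1* gained) and 1 (*Mmp12*, 0.84) for OxLDL against AcLDL in knockout cells. Leaving out 1 library gave between 0 and 2 genes with AcLDL and between 1 and 4 with OxLDL in wild type cells. The cause of these changes was not tested. Scalings and the default filter gave the same numbers, and DESeq2 gave 2 with OxLDL in knockout cells, where it left *Lox* without an adjusted p. Over all genes the block raised the calls from 165 to 539 with OxLDL in wild type and from 285 to 882 in knockout cells, and from 58 to 265 and from 64 to 307 with AcLDL. For OxLDL against AcLDL it raised them from 1 to 90 and from 8 to 169, between genotypes from 1 to 4 in control and from 2 to 9 with AcLDL, and for the interaction with AcLDL from 0 to 5. Without a filter there were 73 and 91, between genotypes 28, 45 and 34 (control, AcLDL and OxLDL), and 18 and 15 for the interactions. DESeq2 gave 11 and 19 for OxLDL against AcLDL, and 3 and 6 between genotypes in control and with AcLDL. Without a filter, 60 genes were higher and 116 lower with AcLDL and 101 and 236 with OxLDL in wild type cells, and 48 and 140, and 148 and 343, in knockout cells. Without the libraries of other groups these were 3 and 29, 9 and 53, 61 and 137, and 249 and 502, against 8 and 50, 34 and 131, 9 and 55, and 81 and 204 in the fit reported. At 1.67 to 2.85 CPM for 3 counts, depth limits *Lox*, *Fn1*, *Mmp13* and, with LDL, *Mmp14*.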
